A study of Mus musculus with 8 samples.

Results

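Cyp4 enzymes are the cytochrome P450 monooxygenases that put a hydroxyl group on the terminal, or omega, carbon of a fatty acid. The 10 genes described here were taken by symbol from the mouse Cyp4 family, namely 6 Cyp4a genes, 3 Cyp4f genes and Cyp4v3, out of 35275 genes in the count table. All 10 were found there, and all 10 passed the filter on low counts that left 13168 genes to test. The rule that picked them was their symbols, with earlier results of these data known.

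The enzymes sit in the endoplasmic reticulum and take electrons from cytochrome P450 reductase. Alcohol and aldehyde dehydrogenases turn the omega-hydroxy fatty acid into a dicarboxylic acid, which peroxisomes then shorten. In liver, Cyp4a10 and Cyp4a14 are classical targets of the fatty acid receptor PPARα and are induced by fasting, Cyp4a12a is expressed mostly in males, and Cyp4f enzymes inactivate leukotrienes and other eicosanoids.

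The study asked what the liver needs pyruvate carboxylase (Pcx) for during fasting. Liver RNA was sequenced from 9-week-old male C57BL/6 mice after a 24 h fast. 4 mice were Pcx L-/-, carrying a floxed Pcx allele deleted by Cre under the Albumin promoter, and 4 were controls, which the labels call WT and the study describes as Pcx f/f littermates. The Albumin promoter acts in hepatocytes, so the other liver cells keep Pcx, and whole liver was sequenced. In bulk liver, fewer cells of a type and less RNA per cell cannot be told apart.

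Libraries held 12016242 to 20023108 counted reads. Pcx had 14371 to 22066 normalised reads in the controls and 555.6 to 757.8 in Pcx L-/- mice, a count over the whole gene and not over the floxed exon alone, so all 8 labels held. The 6 hepatocyte markers were high in every library, with a summed 43443 to 47341 FPKM (reads scaled by transcript length and library size) in controls and 31310 to 39366 in Pcx L-/-. Pcx L-/- replicate 1, the single Pcx L-/- mouse numbered in the 500s, stood apart: its Spearman correlation over genes was 0.969 to 0.981 with the controls, against 0.949 to 0.964 for the other Pcx L-/- mice. The labels do not say what a mouse number stands for.

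The sequence that all 10 genes share is the heme-binding site, whose cysteine holds the heme iron. The 30 coding bases around it are printed for every gene to show which genes are near copies, since reads from identical stretches cannot be assigned to 1 gene. Capitals mark the cysteine codon, whose GRCm38 position is given. The window crosses a splice junction in each gene and was read 5′ to 3′ on the coding strand from GENCODE M21 transcripts.
Cyp4a14 (ENSMUSG00000028715, chr4:115487305-115487307, minus strand, exon 12): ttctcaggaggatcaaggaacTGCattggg
Cyp4a10 (ENSMUSG00000066072, chr4:115532535-115532537, plus strand, exon 12): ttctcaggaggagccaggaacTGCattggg
Cyp4a31 (ENSMUSG00000028712, chr4:115577940-115577942, plus strand, exon 12): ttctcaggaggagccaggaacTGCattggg
Cyp4a32 (ENSMUSG00000063929, chr4:115621438-115621440, plus strand, exon 12): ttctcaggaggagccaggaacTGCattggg
Cyp4a12a (ENSMUSG00000066071, chr4:115331838-115331840, plus strand, exon 12): ttctcaggaggagcaaggaacTGCattggg
Cyp4a12b (ENSMUSG00000078597, chr4:115438061-115438063, plus strand, exon 12): ttctcaggaggagcaaggaacTGCattggg
Cyp4f13 (ENSMUSG00000024055, chr17:32924948-32924950, minus strand, exon 13): ttctcagcggggaccaggaacTGCatagga
Cyp4f14 (ENSMUSG00000024292, chr17:32905672-32905674, minus strand, exon 12): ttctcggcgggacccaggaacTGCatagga
Cyp4f15 (ENSMUSG00000073424, chr17:32702793-32702795, plus strand, exon 13): ttctccgctgggcccaggaacTGCatagga
Cyp4v3 (ENSMUSG00000079057, chr8:45308384-45308386, minus strand, exon 10): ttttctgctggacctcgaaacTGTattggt

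The window was identical in Cyp4a10, Cyp4a31 and Cyp4a32, and again in Cyp4a12a and Cyp4a12b. Over the whole coding sequence, Cyp4a12a and Cyp4a12b shared 98.5% of aligned bases, whereas Cyp4a10 shared 96.6% with Cyp4a31 and 97.2% with Cyp4a32. Of all 100-base windows of the coding sequence, 41.5% in Cyp4a12a and in Cyp4a12b occurred exactly in the other gene, as did 17.9% in Cyp4a10, 13.8% in Cyp4a31 and 20.1% in Cyp4a32 in a near copy. Cyp4a14, Cyp4f13, Cyp4f14 and Cyp4f15 had 0.0% such windows. Cyp4v3 had 10.9%, all in Gm45753, an annotated gene that overlaps it on the same strand. Counts of the Cyp4a10, Cyp4a31 and Cyp4a32 group, of Cyp4a12a and Cyp4a12b, and of Cyp4v3 are therefore uncertain for reads within such windows.

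Where the near copies do differ, reads can be told apart. Shown for each group are the 60 bases within 1 exon with the most differences summed over all pairs of its genes. Capitals mark bases unlike the first gene of the group. In the Cyp4a10 stretch, Cyp4a31 differed from Cyp4a10 at only 2 bases and Cyp4a32 at 9, so it separates Cyp4a31 from Cyp4a10 poorly. Coding bases 202 to 261 lie in exon 2 of the Cyp4a10 group, on the plus strand of chromosome 4 in GRCm38, and coding bases 631 to 690 in exon 6 of the Cyp4a12 pair.
Cyp4a10 (chr4:115519642-115519701): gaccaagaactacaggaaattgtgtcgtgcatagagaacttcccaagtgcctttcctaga
Cyp4a31 (chr4:115565022-115565081): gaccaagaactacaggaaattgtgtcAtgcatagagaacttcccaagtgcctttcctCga
Cyp4a32 (chr4:115602272-115602331): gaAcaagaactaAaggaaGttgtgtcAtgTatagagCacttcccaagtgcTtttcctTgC
Cyp4a12a (chr4:115326629-115326688): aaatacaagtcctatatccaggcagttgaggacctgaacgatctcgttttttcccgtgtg
Cyp4a12b (chr4:115432882-115432941): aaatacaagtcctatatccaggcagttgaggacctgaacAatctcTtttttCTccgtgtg

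All 3 Cyp4f genes described here were lower in Pcx L-/- liver, and so were Cyp4a14 and Cyp4a12a. Cyp4a10, Cyp4a12b, Cyp4a31, Cyp4a32 and Cyp4v3 did not pass the test. With edgeR's quasi-likelihood test and an adjusted p under 0.05 over all genes tested, 5 of 10 members were lower, where 13.5% of all genes tested were lower, and 0 were higher, where 14.1% were higher and 27.6% were altered either way. At an unadjusted p under 0.05, 0 members were higher, and DESeq2 also called 0 higher. The log2 fold change was below 0 in 9 of 10 members against 50.6% of all genes. The median over the members was -0.52 on the log2 scale, the median over all genes tested -0.01. In 3 members, Cyp4a14, Cyp4f13 and Cyp4f14, every Pcx L-/- mouse lay below every control, as 12.5% of all genes tested did.

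The scaling of libraries moved every gene. The TMM factor, which corrects a library for its composition, was 0.970 in Pcx L-/- replicate 1 and 1.14 to 1.17 in the other Pcx L-/- mice, against 0.833 to 0.942 in controls. With the factor, 1855 genes were higher and 1777 lower. Scaled by library size alone, 3915 were higher and 870 lower, and the median of all genes moved to 0.28 on the log2 scale, yet 4 members were still lower (Cyp4a14, Cyp4f13, Cyp4f14 and Cyp4f15) and 0 higher. Relative to that median, Cyp4f14 stood at -1.13, Cyp4f15 at -1.0, Cyp4a14 at -0.67 and Cyp4f13 at -0.65, against -1.10, -0.96, -0.68 and -0.63 with the factor.

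**Figure D1:**
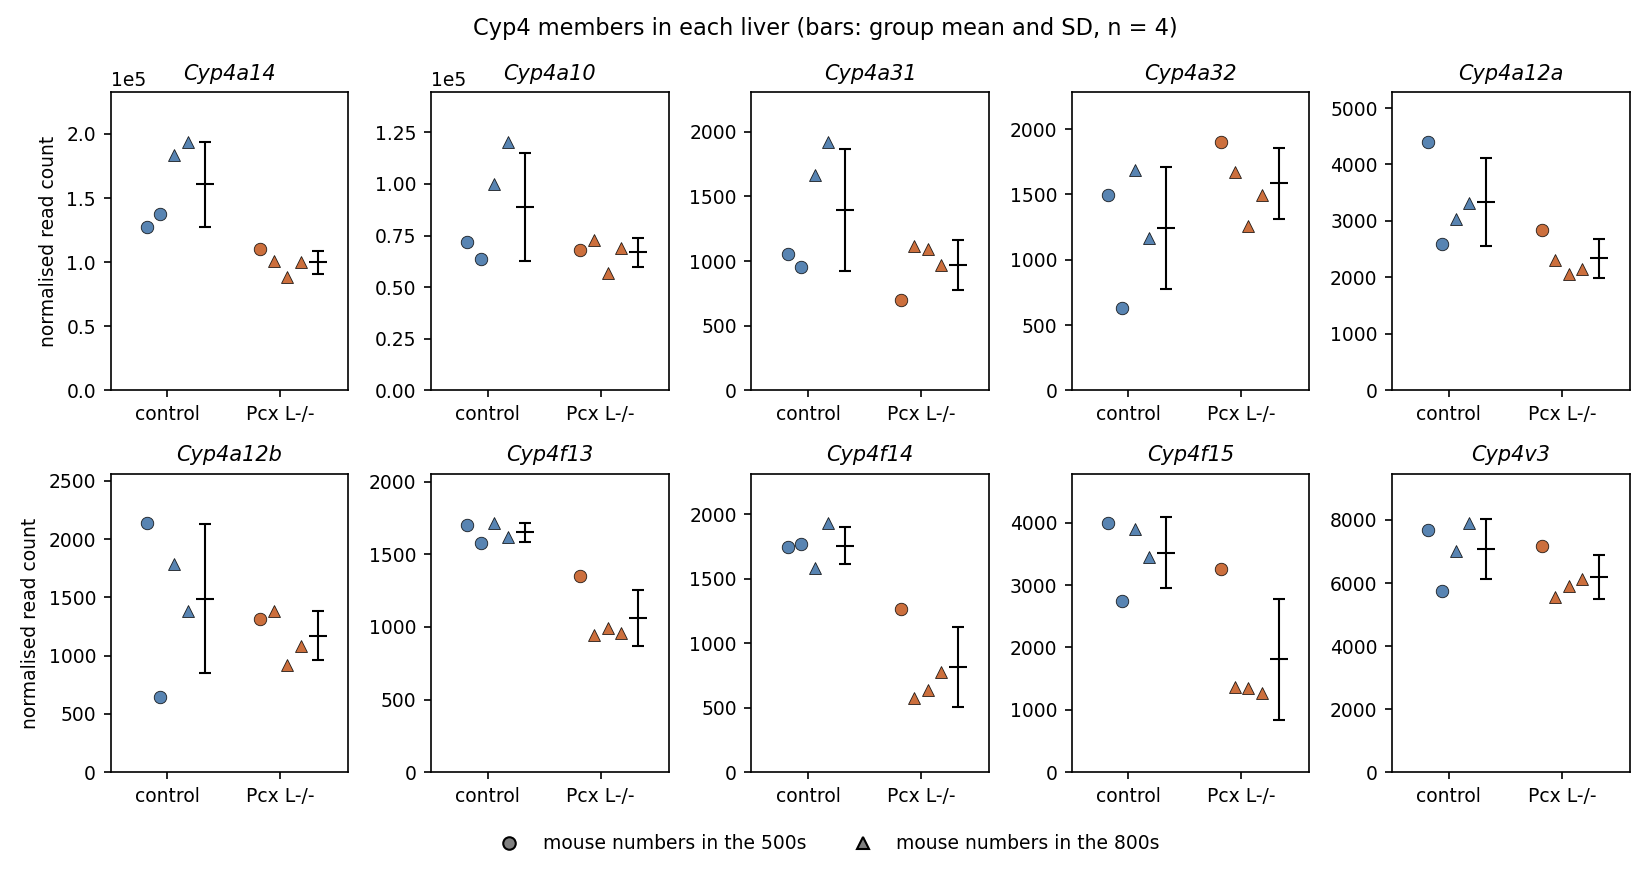
Normalised read counts of the 10 Cyp4 genes in each liver, 1 panel per gene with its own y axis starting at 0, blue for control and orange for Pcx L-/-, circles for mice numbered in the 500s and triangles for the 800s, with the group mean and SD (n = 4) as bars. The groups do not overlap for Cyp4a14, Cyp4f13 and Cyp4f14, and the 500s Pcx L-/- mouse is the highest of its group in 7 of the 10 genes.

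Cyp4f14, a leukotriene B4 omega-hydroxylase of liver, fell the most of the 10. Its normalised read count, scaled for library size and composition, was 1749, 1772, 1583 and 1930 in control replicates 1 to 4 and 1269, 578.4, 637.6 and 778.8 in Pcx L-/- replicates 1 to 4. Every Pcx L-/- value lay below the lowest control, with replicate 1 nearest to the controls. The mean fell from 1759 ± 142 to 816 ± 314 (SD, n = 4), to 46.4% of control, with a log2 fold change of -1.11 (SE 0.21, adjusted p = 0.00439 by edgeR's quasi-likelihood test).

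Cyp4f13, which lies next to Cyp4f14 on chromosome 17 and encodes a related omega-hydroxylase, had 1699, 1577, 1712 and 1616 normalised reads in the controls. The Pcx L-/- mice had 1352, 940.9, 990.5 and 959.4. The controls were nearly level, and again replicate 1 was the Pcx L-/- mouse closest to them. The log2 fold change was -0.64 (SE 0.13, adjusted p = 0.00501, edgeR).

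Cyp4f15, the third Cyp4f gene described here, lies on the same chromosome. It had 3987, 2751, 3902 and 3443 normalised reads in the controls and 3259, 1359, 1349 and 1273 in the Pcx L-/- mice. Here the groups overlapped, because Pcx L-/- replicate 1 lay inside the control range while the others lay below it. The log2 fold change was -0.96 (SE 0.29, adjusted p = 0.0286, edgeR). Cyp4f15 lost the threshold in the fits lacking Pcx L-/- replicate 2, 3 or 4, or control replicate 1 or 3, with adjusted p up to 0.0904, and was -1.41 on the log2 scale without Pcx L-/- replicate 1. Cyp4f13 and Cyp4f14 passed the threshold in 19 of 19 alternative analyses.

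**Figure D2:**
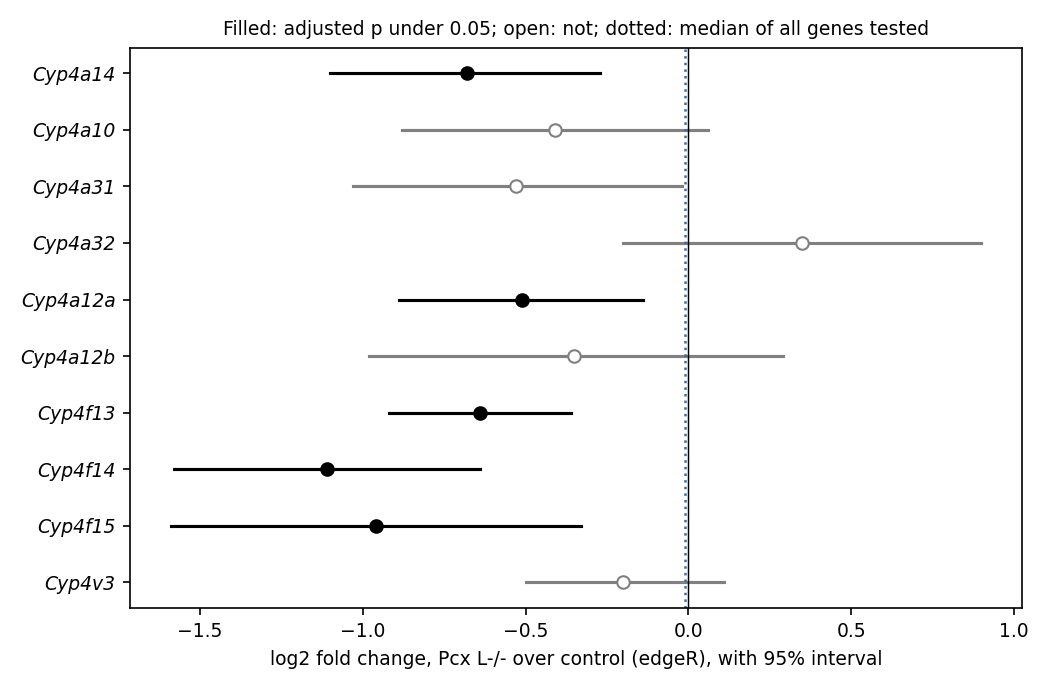
Log2 fold change of each Cyp4 gene in Pcx L-/- over control liver with its 95% interval from edgeR, filled where the adjusted p was under 0.05, with a dotted line at the median of all genes tested. The 3 Cyp4f genes, Cyp4a14 and Cyp4a12a are filled and below 0, and Cyp4a32 alone lies above 0, with an interval of -0.20 to 0.90.

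Sequence before the starts of the 3 Cyp4f genes is shown because these genes were lower together. Each line holds 200 bases of GRCm38.p6 from the RefSeq promoter table, ending at the last base before the GENCODE gene and read 5′ to 3′ on the gene's strand. Capitals mark a CCAAT box in its reverse orientation.
Cyp4f13 (chr17:32947403-32947602, minus strand): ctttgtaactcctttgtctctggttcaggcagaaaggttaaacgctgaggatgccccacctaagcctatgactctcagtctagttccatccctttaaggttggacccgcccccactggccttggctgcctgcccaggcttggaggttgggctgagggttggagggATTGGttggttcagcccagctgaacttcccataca
Cyp4f14 (chr17:32917343-32917542, minus strand): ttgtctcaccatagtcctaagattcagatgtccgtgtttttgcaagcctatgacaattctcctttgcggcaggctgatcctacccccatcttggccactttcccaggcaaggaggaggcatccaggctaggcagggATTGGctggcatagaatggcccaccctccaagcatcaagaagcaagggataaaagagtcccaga
Cyp4f15 (chr17:32685427-32685626, plus strand): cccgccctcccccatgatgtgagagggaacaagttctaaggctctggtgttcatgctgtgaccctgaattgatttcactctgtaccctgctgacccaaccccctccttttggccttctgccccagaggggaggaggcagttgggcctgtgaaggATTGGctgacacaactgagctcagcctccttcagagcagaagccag

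All 3 windows held 1 CCAAT box (CCAAT on either strand), starting 35, 64 and 46 bases before Cyp4f13, Cyp4f14 and Cyp4f15. Of 27025 RefSeq promoters searched over the 200 bases before the RefSeq start, 8112 held CCAAT. The windows printed here end before the GENCODE gene instead, so these shares need not cover the same positions. None of the 3 windows held the nuclear receptor motif AGGTCA (11.2% of promoters), its direct repeat spaced by 1 base, AGGTCANAGGTCA (0.0370%), which contains that motif, or the STAT-type palindrome TTCNNNGAA (5.62%). A match is a description of these letters and not a measured binding site. The window of Cyp4a32, the member with a log2 fold change above 0, also held 1 CCAAT box and none of the other motifs. The length used for its FPKM equalled its coding length, 1530 bases. Its window may therefore hold transcribed bases and is not strictly comparable with the other 3. The table further held Cyp4v3, but not Cyp4a10, Cyp4a12a, Cyp4a12b, Cyp4a14 and Cyp4a31.

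Cyp4a14, a fatty acid omega-hydroxylase that fasting and PPARα agonists induce, was the most abundant member by FPKM. Its normalised read count was 127638, 137544, 183236 and 193931 in the controls and 110340, 100752, 88440 and 99991 in the Pcx L-/- mice. The groups did not overlap, and the spread among controls was wider than among Pcx L-/- mice. The mean was 62.2% of control, with a log2 fold change of -0.68 (SE 0.19, adjusted p = 0.0211, edgeR). Cyp4a14 passed in 12 of 19 alternatives and lost the threshold, among others, without Pcx L-/- replicate 2, 3 or 4, without control replicate 3, and with limma on log2(FPKM + 1) or log2(FPKM + 0.1), with adjusted p up to 0.0959 over all alternatives.

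Cyp4a10, the neighbouring PPARα target with the same reaction, had 71729, 63426, 99741 and 120445 normalised reads in the controls. The Pcx L-/- mice had 68041, 73092, 56969 and 69145. Control replicates 3 and 4 were above all Pcx L-/- mice and control replicates 1 and 2 were among them. The log2 fold change of -0.41 did not pass (SE 0.22, adjusted p = 0.185, edgeR), and its 95% interval ran from -0.88 to 0.06.

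Cyp4a31 and Cyp4a32, near copies of Cyp4a10 whose own substrates are less studied, pointed in opposite directions without passing the test. Cyp4a31 had 1052, 952.4, 1663 and 1923 normalised reads in controls and 695.5, 1113, 1092 and 973.3 in Pcx L-/- (log2 fold change -0.53, SE 0.23, adjusted p = 0.111, edgeR). Cyp4a32 had 1495, 627.4, 1687 and 1165 in controls and 1903, 1675, 1260 and 1499 in Pcx L-/- (log2 fold change 0.35, SE 0.25, adjusted p = 0.336, edgeR). The groups overlapped for both genes. With a term for the range of mouse numbers, Cyp4a31 did pass (-0.68, adjusted p = 0.00172), as it did without control replicate 2. Summing the reads of Cyp4a10, Cyp4a31 and Cyp4a32 gave -0.40 (SE 0.22, adjusted p = 0.197, edgeR), which did not pass either. In the controls Cyp4a10 held a mean of 88835 of the 91476 summed normalised reads. The sum therefore follows Cyp4a10 and says little about its near copies. It holds only reads already counted for each gene.

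Cyp4a12a, the male-biased enzyme that makes most of the omega-hydroxylated arachidonic acid in mice, had 4403, 2589, 3034 and 3316 normalised reads in the controls and 2840, 2305, 2066 and 2145 in the Pcx L-/- mice. Control replicate 2 lay below Pcx L-/- replicate 1, and the other Pcx L-/- mice lay below every control. The log2 fold change was -0.51 (SE 0.17, adjusted p = 0.0443, edgeR), close to the threshold, and it passed in 8 of 19 alternatives, failing among others in the fits lacking Pcx L-/- replicate 2, 3 or 4, or control replicate 1, 3 or 4. It also failed with the term for the range of mouse numbers (-0.46, adjusted p = 0.0563, edgeR). Cyp4a12b, its near copy, ran from 649.1 to 2135 in the controls and from 919.8 to 1380 in Pcx L-/-, with a log2 fold change of -0.35 (SE 0.29, adjusted p = 0.406) that turned to 0.04 with limma on log2(FPKM + 1) and passed (-0.60, adjusted p = 0.0358) without control replicate 2. With the reads of both summed, the log2 fold change was -0.46 (SE 0.20, adjusted p = 0.105, edgeR).

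Cyp4v3, the mouse counterpart of the gene mutated in Bietti crystalline dystrophy, had 7686, 5754, 7004 and 7889 normalised reads in controls and 7163, 5549, 5895 and 6137 in Pcx L-/-. The groups overlapped, and the log2 fold change of -0.20 (SE 0.14, adjusted p = 0.334, edgeR) had a 95% interval of -0.50 to 0.11 and turned to 0.09 when libraries were scaled by size alone.

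Per transcript length the members spanned a wide range of levels, and Cyp4a14 and Cyp4a10 held nearly all of the family's FPKM. Cyp4a14 stood at 3413 ± 570 FPKM in the controls, rank 18 among all genes, and at 2595 ± 160 in Pcx L-/- (SD, n = 4). Cyp4a10 stood at 2224 ± 543 FPKM in the controls, rank 32, and at 2062 ± 268 in Pcx L-/-. These were far above the rest.

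The other 8 members lay between 29.4 and 99.0 FPKM in the controls. In order these were Cyp4v3 (99.0 ± 11.2 FPKM), Cyp4f15 (86.7 ± 14.9), Cyp4a12a (73.5 ± 17.9), Cyp4f13 (50.3 ± 3.72), Cyp4a32 (43.4 ± 16.7), Cyp4f14 (42.4 ± 2.46), Cyp4a12b (33.2 ± 14.8) and Cyp4a31 (29.4 ± 8.57). Among these 8, every pair of neighbours in the order differed by less than the sum of their SDs except Cyp4a12a and Cyp4f13. FPKM was not scaled for library composition, which shifts every gene upward in Pcx L-/- relative to the normalised counts.

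In Pcx L-/- the order differed for several genes. Cyp4f14 fell to 23.5 ± 6.64 FPKM and from rank 1230 to rank 2385. Cyp4f15 stood at 52.6 ± 22.2 FPKM and moved from rank 653 to 1151, whereas Cyp4a32 stood at 66.9 ± 8.25 FPKM and moved from rank 1214 to 890. Cyp4v3 stood at 105 ± 3.64 FPKM, against 99.0 in the controls.

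**Figure D3:**
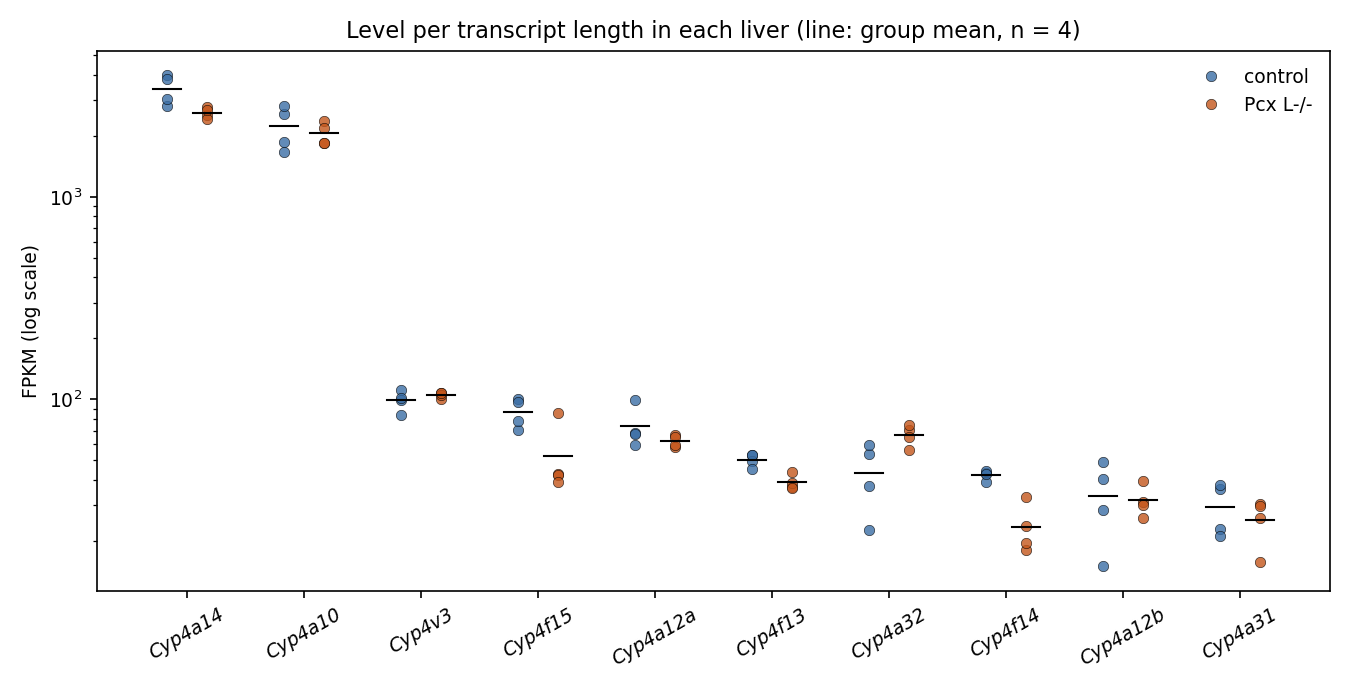
FPKM of each Cyp4 gene in every liver on a log axis, ordered by the control mean, blue for control and orange for Pcx L-/-, with a line at each group mean (n = 4). Cyp4a14 and Cyp4a10 sit at 1668 FPKM or higher in all 8 livers, and the other members lie between 15.0 and 110.8 FPKM.

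The family took 1.44% ± 0.253 of all counted reads in the controls and 1.18% ± 0.0947 in Pcx L-/- (SD, n = 4). Cyp4a14 and Cyp4a10 together held 92.3% of the summed FPKM in the controls and 91.9% in Pcx L-/-, so the family total followed this pair. The ratio of Cyp4a14 to Cyp4a10 in FPKM was 1.36 to 1.83 in the controls and 1.17 to 1.37 in Pcx L-/-. The 3 Cyp4f genes summed to 165 to 198 FPKM in the controls and to 97.8 to 163 FPKM in Pcx L-/-, where the upper value was replicate 1.

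The range of mouse numbers moved with the size of these differences. Mice numbered in the 500s were control replicates 1 and 2 and Pcx L-/- replicate 1, and those in the 800s the remaining 5. In mean log2 normalised count, Cyp4f15 differed by -0.02 within the 500s and by -1.47 within the 800s. Cyp4f14 differed by -0.47 and -1.40, Cyp4f13 by -0.28 and -0.79, and Cyp4a14 by -0.26 and -0.97.

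Cyp4a14, Cyp4f13 and Cyp4f14 were below the controls in both ranges, by less in the 500s, whereas for Cyp4f15 the 500s Pcx L-/- mouse lay between its controls. Cyp4a12a (-0.25 and -0.55) and Cyp4a31 (-0.52 and -0.76) also had the same sign in both, whereas Cyp4a10 (0.01 and -0.73), Cyp4a12b (0.16 and -0.50) and Cyp4v3 (0.11 and -0.34) did not. Cyp4a32 differed by 0.97 within the 500s and by 0.07 within the 800s. The 500s hold only 1 Pcx L-/- mouse, so that mouse and the range cannot be told apart, and the difference between the ranges was not tested.

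**Figure D4:**
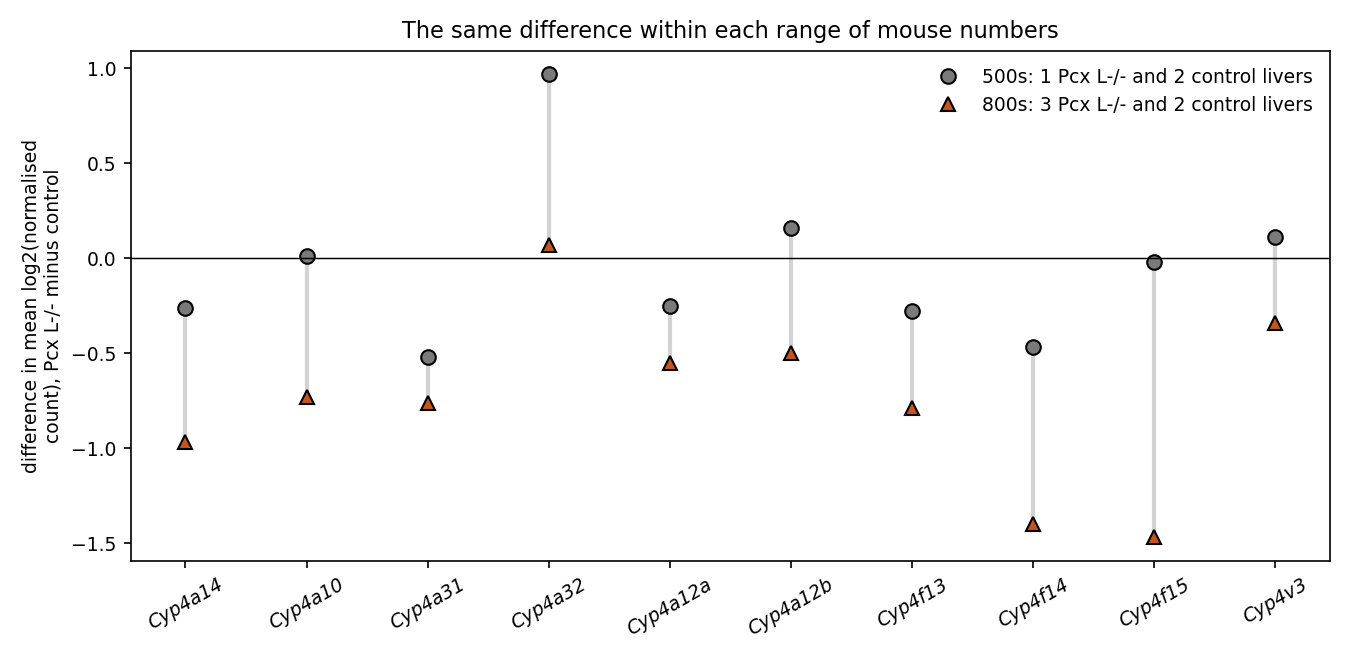
Difference in mean log2(normalised count), Pcx L-/- minus control, for each Cyp4 gene within the mice numbered in the 500s (grey circles, 1 Pcx L-/- and 2 control) and in the 800s (orange triangles, 3 Pcx L-/- and 2 control). The 800s value lies below the 500s value for every gene, by the most for Cyp4f15 (-0.02 against -1.47).

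The members' profiles over the 8 livers were compared with each other and with other genes. As a measure of likeness, each gene's log2(normalised count + 1) was centred on its own mean and the Euclidean distance between genes taken over the 8 libraries. Within the family the closest pairs were Cyp4a10 with Cyp4a14 (0.55) and Cyp4a12a with Cyp4f13 (0.58), and the farthest was Cyp4a32 with Cyp4f14 (2.65).

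Among 10643 genes outside the family with a mean of at least 1 FPKM, Serping1, the C1 inhibitor, was nearest to Cyp4f13 at a distance of 0.05, where a flat profile would be at 1.02. The coagulation factors F9 and F7 were nearest to Cyp4a14 (0.28, flat 1.10) and Cyp4f14 (0.34, flat 1.89). Ctcflos was nearest to Cyp4f15 (0.26, flat 1.93), Zfp516 to Cyp4a12a (0.32) and Antxr2 to Cyp4v3 (0.14, flat 0.52). Cyp4a10 was nearest to Gm10602 (0.27), Cyp4a31 to Zhx3 (0.44), Cyp4a32 to Treh (0.41) and Cyp4a12b to Gm17112 (0.69). With only 8 libraries these distances describe the profiles and carry no test.

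Of the 17 other Cyp4 genes annotated in the count table, 7 had no read and 3 had at least 10 reads in 4 libraries. Cyp4f17 was lower in Pcx L-/- with no overlap of the groups (log2 fold change -0.80, SE 0.18, adjusted p = 0.00814, edgeR), at 9.41 FPKM in controls and 6.57 in Pcx L-/-. Cyp4b1, which acts on short fatty acids and foreign compounds, and Cyp4f16 did not pass (0.09 and -0.15 on the log2 scale, adjusted p = 0.681 and 0.711).

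The enzymes that work before and after Cyp4 in omega-oxidation were described as a fixed list of 14 genes. Of 13 tested, 7 were lower and 0 higher in Pcx L-/- liver, with a median log2 fold change of -0.53, where 13.5% of all genes tested were lower and 14.1% higher. At an unadjusted p under 0.05 and with DESeq2, 0 of them were higher as well. The lowest were Adh7, an alcohol dehydrogenase at 6.45 FPKM in controls (-1.26, SE 0.16, adjusted p = 8.2e-04), and Cyb5r3, the reductase of cytochrome b5 (-0.91, SE 0.15, adjusted p = 0.00189). The highest were the electron carrier Cyb5a (0.25, adjusted p = 0.464) and Aldh1a7 (0.22, adjusted p = 0.135), which did not pass.

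Por, the reductase that supplies electrons to all Cyp4 enzymes, had a log2 fold change of -0.73 that did not pass (SE 0.27, adjusted p = 0.0673) and is named for its role after its value was seen. The count of 7 lower partners became 4 without control replicate 1 or 3, 3 without Pcx L-/- replicate 2 or 3, and 2 without Pcx L-/- replicate 4. Scaled by library size alone, 3 partners were lower and 1 higher.

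Of 23 genes of peroxisomal oxidation, 7 were lower and 1 higher (median -0.35), against 13.5% and 14.1% of all genes tested. The lowest were the peroxisomal fatty acid transporter Abcd2 (-1.57, SE 0.25, adjusted p = 0.00174) and the acyl-CoA synthetase Acsl1 (-1.01, SE 0.22, adjusted p = 0.00672). The CoA hydrolase Nudt7 rose (0.52, SE 0.15, adjusted p = 0.0258), and the thiolase Acaa1a came next at 0.23 without passing (adjusted p = 0.183). The count of lower genes was 15 without Pcx L-/- replicate 1, 4 without replicate 2, and 3 without replicate 3 or 4. The count of higher genes was 2 without control replicate 4, and 0 without Pcx L-/- replicate 2 or 4, or control replicate 2 or 3. Scaled by library size alone, 5 were lower and 4 higher.

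**Figure D5:**
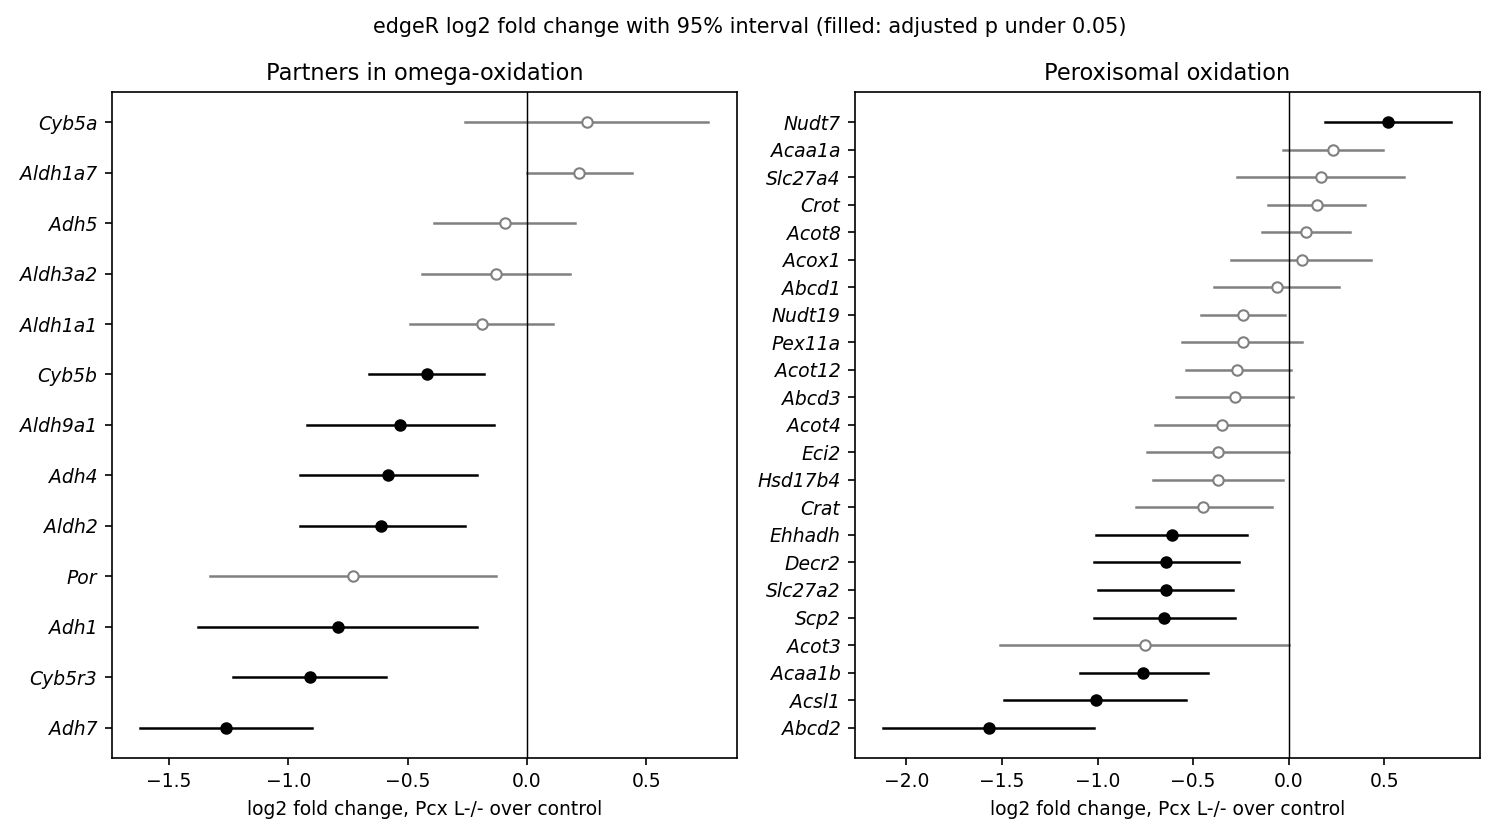
Log2 fold change with 95% interval (edgeR) for partners of omega-oxidation on the left and genes of peroxisomal oxidation on the right, filled where the adjusted p was under 0.05. On the left 7 filled genes lie below 0 and none above, and on the right 7 lie below and Nudt7 alone above.

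A fixed list of genes taken as PPARα targets outside the Cyp4 family held 34 that were tested. Whether each responds to PPARα in these livers was not tested. Of the 34, 13 were lower, where 13.5% of all genes tested were lower, and 5 higher, where 14.1% were higher (median -0.32). The share of higher targets was near that of all genes. The highest were Fgf21, a fasting hormone of liver (4.23, SE 0.52, adjusted p = 7.35e-04), and the thioesterase Acot2 (2.65, SE 0.29, adjusted p = 4.2e-04). The lowest were Fgf1, a growth factor (-1.77, SE 0.38, adjusted p = 0.00691), and Vnn1, a pantetheinase (-1.11, SE 0.27, adjusted p = 0.0119). The count of lower targets was 21 without Pcx L-/- replicate 1 and 8 without Pcx L-/- replicate 2, 3 or 4, or control replicate 3. Scaled by library size alone, 7 were lower and 5 higher.

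Among 21 regulators of Cyp4 genes, 5 were lower and 3 higher (median -0.31), against 13.5% and 14.1% of all genes tested, so the higher count was near the background. Nr1i3, the receptor CAR, was lowest (-1.11, SE 0.30, adjusted p = 0.0193), followed by Socs2, which did not pass (-0.74, adjusted p = 0.227). Bcl6, near the upper end, did not pass (0.46, adjusted p = 0.432). Ppara itself was lower (-0.52, SE 0.13, adjusted p = 0.0137) and is named here after its value was seen. The count of lower regulators was 10 without Pcx L-/- replicate 1, 3 without replicate 2, 2 without replicate 3 and 1 without replicate 4, and it was 3 in each fit lacking control replicate 1, 3 or 4. Scaled by library size alone, 2 were lower and 3 higher.

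Male-biased liver genes, the group in which Cyp4a12a is usually placed, were lower in 10 of 11 tested, where 13.5% of all genes tested were lower, and higher in 0 (median -1.59), also 0 at an unadjusted p under 0.05 and with DESeq2. Selenbp2 (-3.93, SE 0.57, adjusted p = 0.0012) and Susd4 (-2.71, SE 0.32, adjusted p = 6.38e-04) were lowest. Elovl3 (0.17, adjusted p = 0.691) and Mup20 (-0.89, SE 0.19, adjusted p = 0.00669) were at the upper end. Cyp4a12a, at -0.51 and passing in 8 of 19 alternatives, fell by less than each of the 10 lower male-biased genes. Of 12 female-biased genes only 3 could be tested, among them Cux2, which was lower (-2.81, SE 0.52, adjusted p = 0.00364), and Cyp2b9, which did not pass (0.54, adjusted p = 0.592).

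Genes that make or break down leukotrienes and related lipids, the substrates of Cyp4f enzymes, were described by a list of 10. Alox5 and Ltc4s were too low to test, with at most 11 and 5 reads in any library. Of the 8 tested genes, 1 was lower and 0 higher (median -0.13, 0 higher with DESeq2 and at an unadjusted p under 0.05 only Lta4h). The lower count was near the 13.5% of all genes tested that were lower. Lta4h, which makes leukotriene B4, had 0.27 (adjusted p = 0.0811) and Pla2g4a 0.05 (adjusted p = 0.906). The lowest were Ptgr1 (-0.56, adjusted p = 0.380) and the epoxide hydrolase Ephx1, which passed (-0.47, SE 0.15, adjusted p = 0.0365). Leaving out 1 mouse moved the lower count to 3 without Pcx L-/- replicate 1 and to 0 without Pcx L-/- replicate 2, 3 or 4, or control replicate 1, 2 or 3. Scaled by library size alone, 0 were lower and 1 was higher.

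Markers of liver cells were set beside the members, and most of them did not pass the test. Of 6 hepatocyte markers 2 were lower (Apoa1 and Apob) and 0 higher, with a median log2 fold change of -0.57, near the members' -0.52. Periportal markers were lower in 3 of 6 (median -0.70) and pericentral markers in 1 of 7 with 1 higher (median -0.25). Of all genes tested, 13.5% were lower and 14.1% higher, so the pericentral counts were near the background. The macrophage markers, 7 in all, had a median of 0.01 with 1 higher (Cd68), and their summed level was 64.6 to 95.8 FPKM in controls and 79.0 to 129 FPKM in Pcx L-/-.

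The 5 endothelial and 5 stellate markers had medians of -0.03 and 0.07 with none past the threshold. Of 4 cholangiocyte markers 1 was lower (Sox9), where 13.5% of all genes tested were lower. Of 7 neutrophil markers 2 could be tested, neither passed, and Ly6g had no read in any library. Red blood cell markers summed to 317 to 1231 FPKM in controls and to 604, 559 and 1412 FPKM in Pcx L-/- replicates 2, 3 and 4, and none of 5 passed. In Pcx L-/- replicate 1 they summed to 5338 FPKM, above every other library. The part of these markers in the members' results was not tested.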

How the data were processed

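Per the labels, whole-liver total RNA of 8 mice was sequenced. The authors deposited raw read counts per Ensembl gene and FPKM values. The submitters' processing notes name STAR 2.5, HTSeq 0.6.1, DESeq2 and mm10. No source used here gives the annotation release or the strand setting, so reads of overlapping or antisense genes cannot be told apart. All 142384 deposited FPKM values above 0 equalled reads over gene length and library total (100%) within a relative tolerance of 1e-06, so FPKM carries no TMM factor.

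Counts were fitted with edgeR 4.0.16 (R 4.3.3): filterByExpr with a minimum count of 10, TMM factors, quasi-likelihood F test of genotype over 8 libraries and Benjamini-Hochberg adjustment over 13168 genes. DESeq2 1.42.0, apeglm 1.24.0 and limma 3.58.1 on log2(FPKM + 1) and log2(FPKM + 0.1) were alternatives, as were other scalings and filters, a replicate block, a term for mouse-number range, summed near copies, and fits lacking each mouse in turn. Normalised counts are counts scaled by library size and TMM factor to a common size. Intervals are 95% limits of the log2 fold change from its SE. The common biological coefficient of variation was 0.181 with 6 residual degrees of freedom. The p-values judge the difference between genotypes against the spread between mice.

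Members and lists were chosen with earlier results of these data known. Named are all members, other Cyp4 genes with at least 10 reads in 4 libraries, the 2 highest and 2 lowest log2 fold changes of each list, with Por and Ppara added after their values were seen, and the nearest gene to each member. The results of 2 genes that this rule would name are not reported here. Sequences came from GENCODE M21 transcripts and the RefSeq promoter table.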

Additional observations from a re-analysis of the deposited data

Results flagged for a closer look

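In Pcx L-/- replicate 1, Cyp4f13 had 1352 normalised reads, far from the other Pcx L-/- mice, the nearest of which had 990.5, a gap of 0.88 of the whole range of the group. Cyp4f15 had 3259 normalised reads in the same mouse, where the nearest other Pcx L-/- mouse had 1359, a gap of 0.96 of the range. These were 2 of 20 gene and group combinations compared, and chance alone flags about 1 in 20. Both values come from 1 mouse, so they are not independent of each other.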

How the results depend on the processing

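The 10 members gave 187 comparisons of a log2 fold change with its main value, of which 156 kept both direction and side of the threshold. Direction turned in 5: Cyp4v3 was 0.09 with scaling by library size alone, with limma on log2(FPKM + 1) and with limma on log2(FPKM + 0.1), and Cyp4a12b was 0.04 and 0.05 with limma at the 2 pseudocounts. None of these 5 passed the threshold. The median of all genes moved to 0.28 with library size alone and to 0.184 and 0.269 with limma, where higher calls made up 81.8% to 82.3% of all calls, against 51.1% in the main analysis.

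The count of lower members was 5 in the main analysis, 3 with limma at either pseudocount, 2 at an adjusted p under 0.01 and 4 with the reads of near copies summed. Leaving out 1 mouse gave 2 to 7 lower members (7 without control replicate 2, 3 without control replicate 1, and 2 without control replicate 3 or Pcx L-/- replicate 2, 3 or 4) and 2109 to 4602 altered genes, against 3632 (2295 without Pcx L-/- replicate 2, 2109 without replicate 4 and 4602 without replicate 1). The count of higher members was 0 in all alternatives. In fits without a mouse, fewer samples were fitted, and no other cause was tested.

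Replicate numbers are shared by both groups. The deviations of same-numbered mice correlated at 0.101, -0.131, -0.101 and -0.07, so the numbers do not pair the mice. With a replicate block 2975 genes were altered and 4 members were lower, without Cyp4a14 (-0.67, adjusted p = 0.0567, edgeR).

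Depth did not limit the members, whose lowest count in any library was 579 reads. Each group held 4 mice, which limits the precision of every value.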
